A study of Homo sapiens with 8 samples.

Results

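The genes for the proteins of the cytosolic ribosome were followed in 2 HER2-positive breast cancer cell lines given a HER2 kinase inhibitor, a BET bromodomain inhibitor or both. Members were the rows whose symbol is that of a cytosolic ribosomal protein (RPL or RPS with a number and an optional A or X, RPLP0, RPLP1, RPLP2 or RPSA) and whose value reached 10 in any library. The rule found 77 genes, 46 of the large subunit and 31 of the small subunit, among the 20531 rows of each table and the 14429 genes that reached that value. The filter removed 0 members, which lie on 21 chromosomes, with 12 on chromosome 19 and 6 on chromosome 17.

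SKBR-3, an estrogen and progesterone receptor-negative line, and BT474m1, a derivative of the receptor-positive BT474 line, were each grown in RPMI with 10% FBS. Each line was given the DMSO vehicle, 300 nM lapatinib, 300 nM JQ1 or both drugs at these doses for 48 h before poly(A) RNA was sequenced. Lapatinib blocks the kinase activity of EGFR and HER2, and JQ1 keeps bromodomain proteins of the BET family off acetylated chromatin. Each of the 8 groups held 1 library, so no test across replicates was possible, and no difference below can be set against the variation between cultures.

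Every ribosome carries a single copy of nearly all of these proteins, which are made in matching amounts and assembled with ribosomal RNA in the nucleolus. Their messenger RNAs are short, abundant and long-lived, and most begin with a C followed by a run of pyrimidines, the 5′ terminal oligopyrimidine (TOP) element through which mTORC1 and LARP1 govern their translation. HER2 signals through PI3K and AKT to mTORC1, and MYC acts on the transcription of many genes of ribosome assembly. RNA abundance does not show how far these messenger RNAs were translated.

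The starts of the members show this element. A RefSeq promoter on GRCh38.p14 was found for 62 of the 77 members. A C followed by at least 4 pyrimidines lay exactly at the annotated start in 42 of these (67.7%), against 1104 of 27305 promoters in all (4.04%). The run began within 10 bases of the start in 88.7% of the members and 33.3% of all promoters. In the 300-base window, read on both strands, CGGAAG was found in 62.9% of the members and 19.9% of all promoters, CCGGAAG, which contains it, in 33.9% and 10.7%, and TCTCGCGA in 17.7% and 1.19%. AAGATGGCG was found in 8.06% and 1.85%, TATAAA in 8.06% and 12.0%, and CACGTG in 4.84% and 7.43%. The starts printed below belong to members described with the drugs: RPSA, RPL35 and RPS26, lower in each of 4 comparisons that add lapatinib, RPL15 and RPS21, higher in these, RPL29 and RPL21, lower in each of 4 comparisons that add JQ1, and RPL12 and RPLP1, higher in these. Each line gives the 10 bases before and the 20 bases from the annotated start, 5′ to 3′ on the gene's own strand, with the pyrimidine run at the start in capitals where there is one. They lie at chr3:39406710-39406739 (plus strand) for RPSA, chr9:124861938-124861967 (minus) for RPL35, chr12:56041908-56041937 (plus) for RPS26, chr3:23916535-23916564 (plus) for RPL15, chr20:62387093-62387122 (plus) for RPS21, chr3:51995876-51995905 (minus) for RPL29, chr13:27251548-27251577 (plus) for RPL21, chr9:127451387-127451416 (minus) for RPL12 and chr15:69452808-69452837 (plus) for RPLP1.
RPSA: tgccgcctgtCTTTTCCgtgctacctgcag
RPL35: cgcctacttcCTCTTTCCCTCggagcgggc
RPS26: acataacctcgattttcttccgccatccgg
RPL15: tggggcctgctggaggagcttcacgcagtc
RPS21: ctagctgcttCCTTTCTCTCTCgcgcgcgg
RPL29: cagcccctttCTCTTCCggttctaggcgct
RPL21: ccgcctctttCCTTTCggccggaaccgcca
RPL12: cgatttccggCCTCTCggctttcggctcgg
RPLP1: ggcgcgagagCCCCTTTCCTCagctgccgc
Members with a run occurred in all 4 of these sets. In SKBR-3 given lapatinib the median log2 difference from DMSO was -0.05 over the 42 members with a run exactly at the annotated start. It was -0.11 over the 20 with none there. In BT474m1 these medians were 0.29 and 0.34. The run began within 10 bases of the start in 55 of the 62 members, so the 20 are not a set that lacks the element.

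The tables held 21420113 to 34112379 reads on genes per library, of which 987521 to 1154884 fell on the members. All values are the deposited estimated counts, which the authors had scaled so that the upper quartile of each library is 1000. The value of 1 read was 0.471 to 0.766. Log2 differences below are of value + 1, with 95% exact Clopper-Pearson intervals. These cover at most counting error and treat each read as a separate molecule. Amplified reads with no molecular identifier are not separate molecules, so the intervals may be too narrow. The median half-width of these intervals was 0.040 to 0.044 over the members. A gene is called raised or lowered when its value changed at least 1.5-fold. ERBB2, KRT8, KRT18 and EPCAM, which mark HER2-amplified luminal cells, were high in all 8 libraries. The estrogen receptor gene ESR1 ranged from 1.93 to 16.8 over the SKBR-3 libraries and from 190 to 1827 over those of BT474m1. The 4 leukocyte markers and 3 of the 4 fibroblast markers were at 10.7 or less, and COL1A1 was 24.1 to 124 over the SKBR-3 libraries and 337 to 1253 over those of BT474m1.

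The members took a larger share of the reads in SKBR-3 than in BT474m1, and lapatinib moved that share in BT474m1 by more than any drug did in SKBR-3. In SKBR-3 the share was 4.78% under DMSO, 4.61% under lapatinib, 4.08% under JQ1 and 4.13% under the combination. For BT474m1 the 4 shares were 3.27%, 4.12%, 3.41% and 3.62% in that order. DMSO stood lowest in BT474m1. In SKBR-3 both JQ1 libraries stood below the others, and which of them was lowest depended on the genes summed: without the 20 highest other genes the shares were 4.72% under JQ1 and 4.62% under the combination. The counting intervals of the shares were narrow, for example 4.7736% to 4.7914% in SKBR-3 with DMSO and 3.2648% to 3.2767% in BT474m1 with DMSO. In bulk RNA, a change in the amount of all other messenger RNA per cell and a change in the members' own cannot be told apart.

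**Figure D1:**
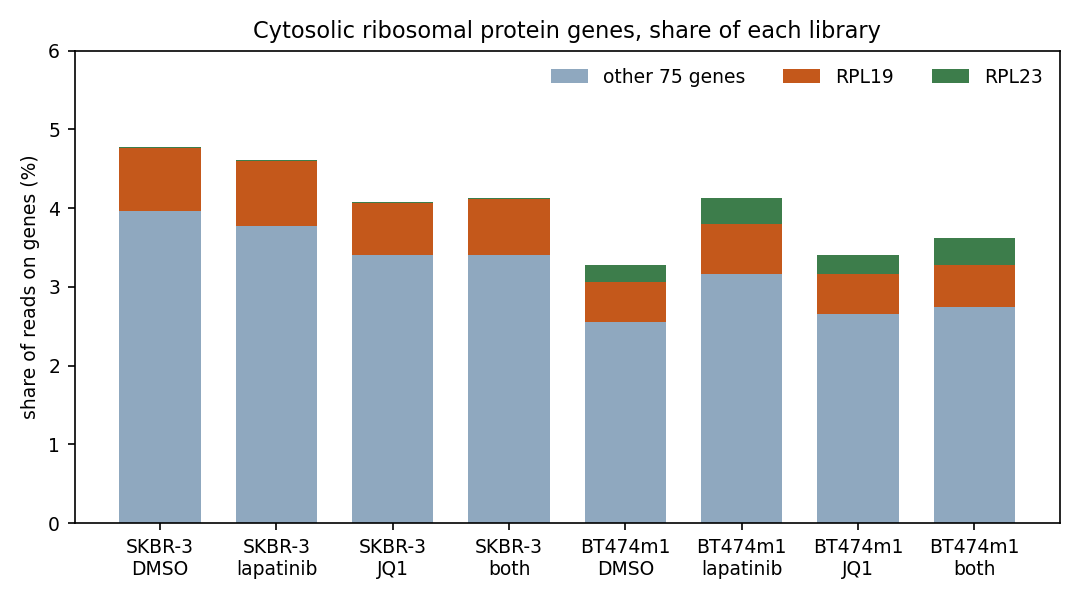
Share of all reads on genes (percent, vertical axis) taken by the 77 ribosomal protein genes in each of the 8 libraries, stacked as RPL19, RPL23 and the other 75 genes. The total runs from 3.27% in BT474m1 with DMSO to 4.78% in SKBR-3 with DMSO, and the RPL23 part is a thin line in SKBR-3 and a wider band in BT474m1.

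RPL19 alone carried 14.7% to 17.9% of the members' summed value. RPL19 lines the exit tunnel of the large subunit, and its gene lies near ERBB2 on chromosome 17. Per kilobase of transcript, RPL19 had the highest level of all members in every library, at 172752 in SKBR-3 with DMSO, where the next, RPS24, stood at 41881 and the median member at 7160. RPS28, a small protein of the messenger RNA exit, had the lowest level per kilobase in every library and was 269 in SKBR-3 with DMSO. These lengths are those of the GENCODE canonical transcript, which for RPS28 is 1330 bases, and messages of another length would change the level. RPL23 took 0.372% to 0.449% of the members' sum in SKBR-3 and 6.27% to 9.24% in BT474m1. Without RPL19 and RPL23 the share of reads was 3.96%, 3.77%, 3.40% and 3.40% in SKBR-3 with DMSO, lapatinib, JQ1 and both drugs, and 2.55%, 3.16%, 2.66% and 2.75% in BT474m1. The order of the libraries within BT474m1 was the same without these 2 genes.

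With lapatinib, the members shifted together upwards in BT474m1 and stayed near their DMSO level in SKBR-3. The median log2 difference from DMSO was 0.31 in BT474m1, against 0.07 over all 14429 genes, with 70 members above 0 and 7 below. Of all genes 54.5% were above 0 there and 44.7% below. The members' median was -0.05 in SKBR-3, against 0.05 over all genes, with 31 members above 0 and 46 below. In that line 53.0% of all genes were above 0 and 44.3% below. In BT474m1, 11 members were raised, where 24.8% of all genes were, and 1 was lowered, where 15.6% were. In SKBR-3, 0 members were raised and 0 lowered, where 23.2% and 18.8% of all genes were. The large and the small subunit had the same median in BT474m1 (0.31 and 0.31) and nearly so in SKBR-3 (-0.05 and -0.07). The difference between the lines was not tested.

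The members varied less among themselves than all genes kept did. The interquartile range of their log2 differences with lapatinib was 0.31 in SKBR-3, where that of all genes was 0.96, and 0.30 in BT474m1, where it was 0.92. The 76 genes of the mitochondrial ribosome had ranges of 0.39 and 0.46, between those of the members and those of all genes. Low genes, with a wide counting error, are part of the range over all genes. The median member stood at 4516 to 6527 over the 8 libraries, above the upper quartile of 1000, and the lowest, RPS28, at 208 to 478.

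The 11 members raised by lapatinib in BT474m1 were RPL13A, RPL31, RPS27, RPL3, RPL37, RPL34, RPL26, RPS23, RPL23, RPL15 and RPS29, at log2 differences of 0.90 down to 0.59. RPL31, at the mouth of the exit tunnel, was 4025 with DMSO and 7375 with lapatinib in BT474m1, a log2 difference of 0.87 (0.83 to 0.91). In SKBR-3 it was 4857 and 5110, a log2 difference of 0.07 (0.02 to 0.12). RPL3, close to the peptidyl transferase centre, was 8967 and 15139 in BT474m1 and 12135 and 15802 in SKBR-3, log2 differences of 0.76 and 0.38. RPL31 thus stood well above DMSO in BT474m1, and RPL3 in both lines. RPL13A, a large-subunit protein also known outside the ribosome in the silencing of inflammatory transcripts, went from 5822 to 10900 in BT474m1, a log2 difference of 0.90 (0.87 to 0.94), and from 8640 to 9721 in SKBR-3, one of 0.17 (0.13 to 0.21). Its processed copy RPL13AP20 was listed at 2668 and 4051 in BT474m1 and 3596 and 3704 in SKBR-3, and with the copies added the log2 differences were 0.81 and 0.13.

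**Figure D2:**
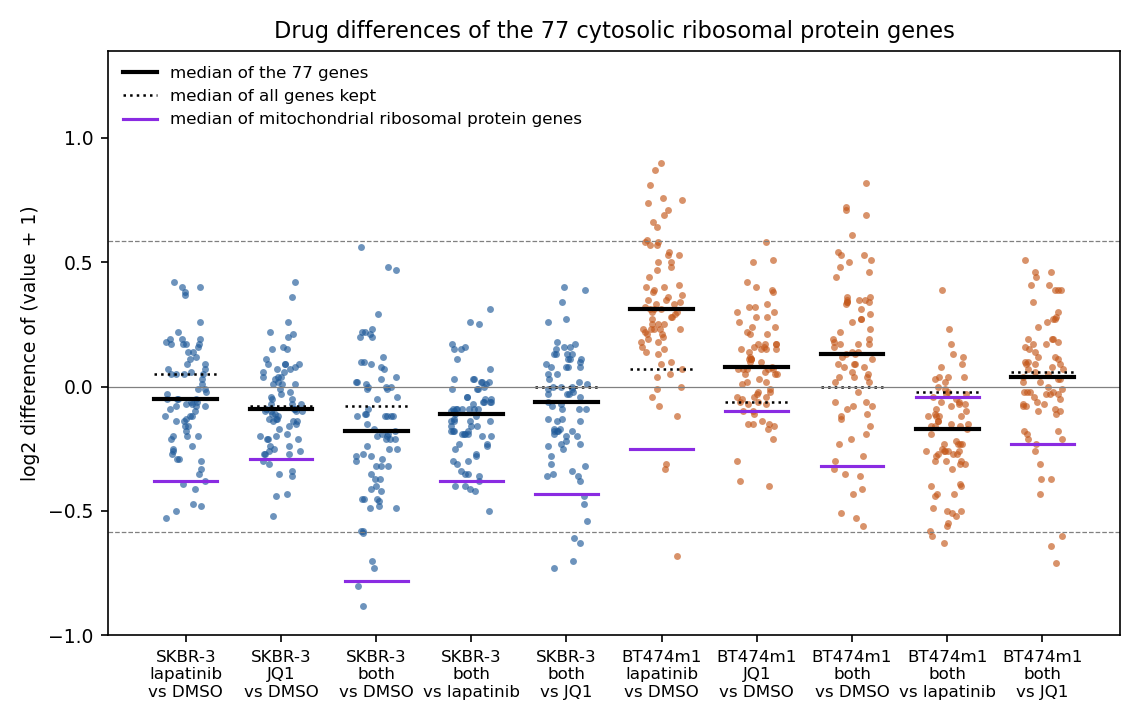
Log2 difference of value + 1 (vertical axis) of each of the 77 members, 1 point a gene, in the 10 drug comparisons, blue for SKBR-3 and orange for BT474m1. Black lines mark the members' median, dotted lines that of all genes kept and purple lines that of the mitochondrial ribosomal protein genes, and dashed lines mark 1.5-fold. The members' median is highest for lapatinib in BT474m1 (0.31) and lowest for both drugs against DMSO in SKBR-3 (-0.18).

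Against this shift, RPS2, RPS26, RPSA and RPL35 stood lowest of the members over the comparisons that add lapatinib. RPS2 and RPS26 sit at the messenger RNA entry and exit of the small subunit, RPSA also serves as a laminin receptor, and RPL35 lies at the mouth of the exit tunnel. RPS2 in SKBR-3 was 18558 under DMSO, 13293 under lapatinib, 21402 under JQ1 and 13184 under the combination. The BT474m1 values were 15987, 12703, 19428 and 12456 in the same order, which is kept for the genes below. In each line both libraries with lapatinib lay below both libraries without it. RPS26 was 2584, 1940, 2649 and 1733 in SKBR-3, and 2169, 1354, 2416 and 1473 in BT474m1. It, too, was lower in both lapatinib libraries of each line, and with -0.68 (-0.75 to -0.61) was the member lowered by lapatinib alone in BT474m1. RPL35 was 4623, 3277, 4333 and 2792 in SKBR-3, and 7041, 5667, 6742 and 5216 in BT474m1. Its 2 values with lapatinib were the lowest of each line. RPS2, RPS26 and RPL35 were picked because they stood low among the members in both lines with lapatinib, so that agreement was set by the choice. The same holds for RPL3, RPL15 and RPS27, which stood high in both.

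RPSA was 22030, 15887, 19869 and 11997 in SKBR-3, and 5458, 5416, 5721 and 3771 in BT474m1. In BT474m1 it differed with lapatinib alone by -0.01 (-0.05 to 0.03), within counting error, and stood apart only with both drugs. RPSA and RPS26 share their sequence with processed copies that the tables list beside them. RPSAP58 had 1.25 to 1.43 times the value of RPSA, and RPS26P11 0.503 to 0.628 times that of RPS26, so the division of reads between gene and copy is uncertain. The sum of RPSA and its copies differed with both drugs against JQ1 by -0.74 in SKBR-3 but by -0.58 in BT474m1, under the 1.5-fold limit. The sum for RPS26 differed by -0.61 and -0.71.

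The same lapatinib comparison can be read in 4 pairs of libraries that share none: lapatinib against DMSO and both drugs against JQ1, in each line. These pairs, chosen after the data were seen, are not replicates, since they differ in line or in JQ1. Of the members, 19 were higher in all 4 pairs (24.7%, where 26.9% of all genes were) and 7 were lower in all 4 (9.09%, where 21.9% were). The mean log2 difference over the 4 pairs was -0.60 for RPS26 (lowest -0.71, highest -0.41), -0.54 for RPS2 (-0.70 and -0.33), -0.45 for RPL35 (-0.63 and -0.31) and -0.45 for RPSA (-0.73 and -0.01). The other members lower in all 4 were RPL8, RPS15 and RPL41, with means of -0.24 to -0.17. All 7 kept that direction under each of 3 scalings of the libraries. So did 13 of the 19 that were higher, among them RPL15, RPS21, RPL13A, RPS27, RPL26, RPL31 and RPL3, while RPS23, RPS28, RPL4, RPS18, RPL23A and RPL19 did not.

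RPL15, a core protein of the large subunit, led the members that were higher, with a mean of 0.46 (lowest 0.39, highest 0.64). Its values were 25021, 33127, 26457 and 34691 in SKBR-3 with DMSO, lapatinib, JQ1 and both drugs, and 16919, 26352, 18733 and 24492 in BT474m1. Both lapatinib libraries of each line were above both libraries without it. RPS21, a small-subunit protein, was 6283, 8121, 6678 and 8783 in SKBR-3, and 1805, 2549, 2361 and 2981 in BT474m1, a mean of 0.40 over the pairs. Here, too, lapatinib libraries were the higher ones in each line. RPS27, a zinc-finger protein of the small subunit, was 5485, 6554, 5438 and 5943 in SKBR-3, and 3081, 5396, 3309 and 4391 in BT474m1.

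**Figure D3:**
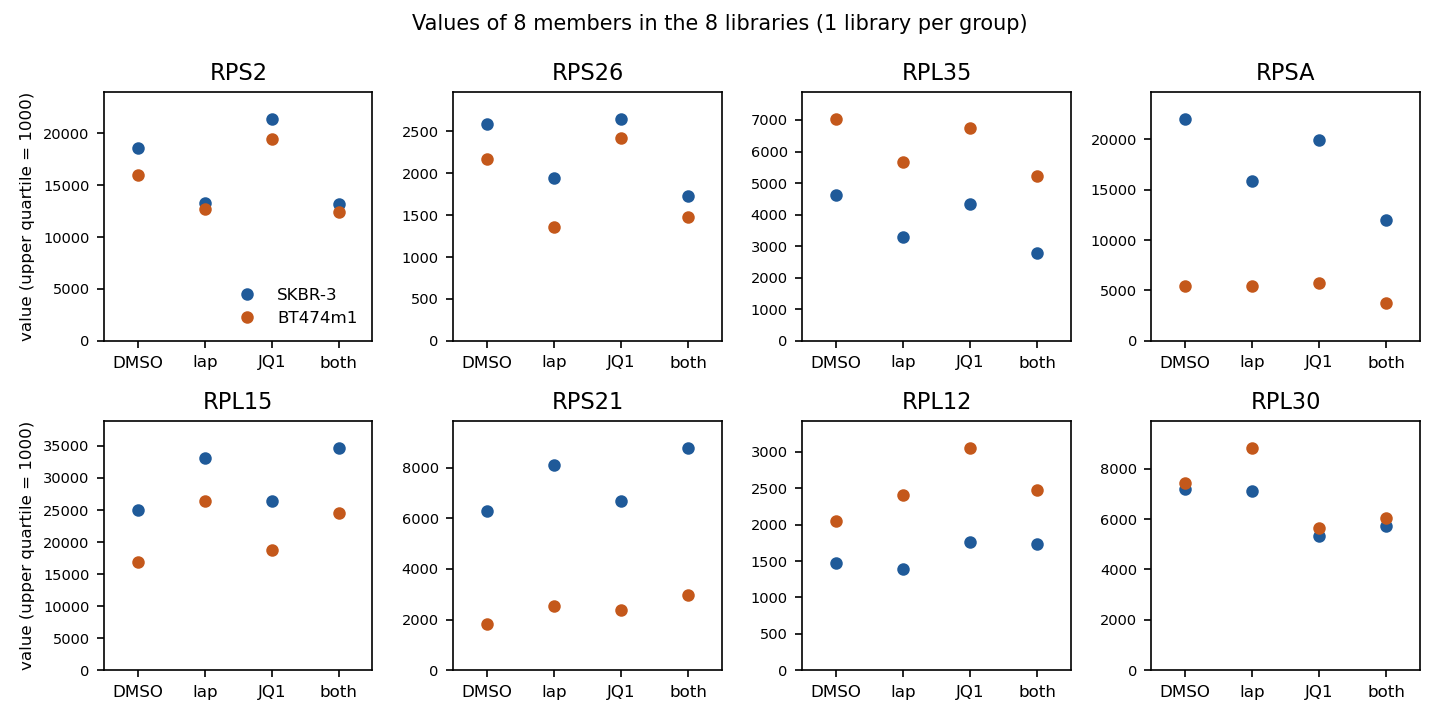
Values (linear vertical axes from 0, the authors' counts scaled to an upper quartile of 1000) of RPS2, RPS26, RPL35, RPSA, RPL15, RPS21, RPL12 and RPL30 under DMSO, lapatinib (lap), JQ1 or both (horizontal axis), 1 point a library, blue for SKBR-3 and orange for BT474m1. RPS2, RPS26 and RPL35 stand lower and RPL15 and RPS21 higher in the lapatinib libraries of both lines, and RPL30 stands lower with JQ1, at 5319 against 7188 with DMSO in SKBR-3 and 5650 against 7450 in BT474m1.

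With JQ1 alone, the members' share of reads was lower in SKBR-3 (4.08% against 4.78% with DMSO), while their median stayed near that of all genes. The median log2 difference was -0.09 in SKBR-3, where that of all genes was -0.08, and 0.08 in BT474m1, where it was -0.06. Under scaling to equal totals the SKBR-3 median was -0.24, where that of all genes was -0.22, and under the median of ratios both were -0.01. In SKBR-3, 0 members were raised and 0 lowered, against 9.49% and 21.5% of all genes, and 1 was lowered under equal totals. In BT474m1, 0 were raised and 0 lowered, against 11.9% and 21.1%, 1 was raised under scaling by the median of ratios, and RPL12 was closest to the limit at 0.58 (0.52 to 0.63). The interquartile range of the members was 0.25 in each line, and that of all genes 0.69 in SKBR-3 and 0.77 in BT474m1.

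Within these limits RPL12, RPLP1 and RPS20, and RPL30, RPL29 and RPL21 below, leaned the same way in both lines. They were picked because they stood on the same side of the members' median in both lines with JQ1. Their agreement between the lines was thus set by the choice. RPL12, which binds at the base of the stalk where elongation factors dock, was 1474, 1393, 1766 and 1728 in SKBR-3 with DMSO, lapatinib, JQ1 and both drugs, and 2046, 2406, 3056 and 2471 in BT474m1. RPLP1, a stalk protein, was 3326, 4397, 4459 and 4890 in SKBR-3, and 2448, 2833, 3279 and 3101 in BT474m1. RPS20, of the head of the small subunit, was 6951, 7100, 8941 and 8473 in SKBR-3, and 8933, 9814, 11747 and 10404 in BT474m1. For each of the 3 genes, both JQ1 libraries of a line were higher than the library that JQ1 was added to, although RPL12 with both drugs against lapatinib in BT474m1, at 0.04 (-0.02 to 0.10), was within counting error. The 4 stalk genes (RPLP0, RPLP1, RPLP2 and RPL12) were above DMSO with JQ1 in both lines, except that RPLP0 (0.09) and RPLP2 (0.07) turned below it in SKBR-3 under scaling to equal totals. The medians of the 4 were 0.18 in SKBR-3 and 0.37 in BT474m1, and 0 of them were raised, where 9.49% and 11.9% of all genes were. When JQ1 was added to lapatinib the set did not move one way, since RPLP0 differed by -0.30 in each line and RPLP2 by 0.02 in SKBR-3 and -0.12 in BT474m1.

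Other members were lower. RPL30, a large-subunit protein whose yeast counterpart binds its own transcript, was 7188, 7100, 5319 and 5742 in SKBR-3, and 7450, 8830, 5650 and 6048 in BT474m1. RPL29, a protein of the surface of the large subunit, was 4978, 4806, 3673 and 3762 in SKBR-3, and 2846, 3335, 2319 and 2262 in BT474m1. RPL21, also of the large subunit, was 4210, 3452, 2943 and 2584 in SKBR-3, and 2126, 2489, 1842 and 1745 in BT474m1. In each line these 3 genes had their lower 2 values in the JQ1 libraries. RPS19, the gene most often mutated in Diamond-Blackfan anaemia, was 7446, 6051, 5809 and 4290 in SKBR-3, and 6391, 7620, 5779 and 5012 in BT474m1.

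In the 4 pairs for JQ1 that share no library (JQ1 against DMSO and both drugs against lapatinib in each line), 7 members were higher in all 4 (9.09%, where 17.7% of all genes were) and 23 were lower in all 4 (29.9%, where 28.2% were). This balance depended on the scaling, since 13 were higher and 11 lower under the median of ratios. Under each of the 3 scalings, 5 stayed higher (RPL12, RPL36, RPL8, RPLP1 and RPS20) and 11 stayed lower, among them RPL30, RPL29, RPL21, RPS19, RPL13A and RPL35. The mean over the pairs was 0.30 for RPL12, 0.28 for RPLP1 and 0.27 for RPS20, and -0.42 for RPL30, -0.41 for RPL29, -0.41 for RPL21 and -0.40 for RPS19.

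Members that stood high or low among the others in one line tended to do so in the other. Across the 77 members, the log2 differences under lapatinib in one line and the other correlated with r = 0.63 (rho = 0.62), where r over all genes was 0.51. With JQ1 they correlated with r = 0.73 (rho = 0.68), where r over all genes was 0.46. The libraries compared share none, but the points share transcript length, base composition and the steps of library preparation, so the values are descriptions. The correlation of the members' differences with transcript GC content lay between -0.35 and 0.35 in all comparisons.

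**Figure D4:**
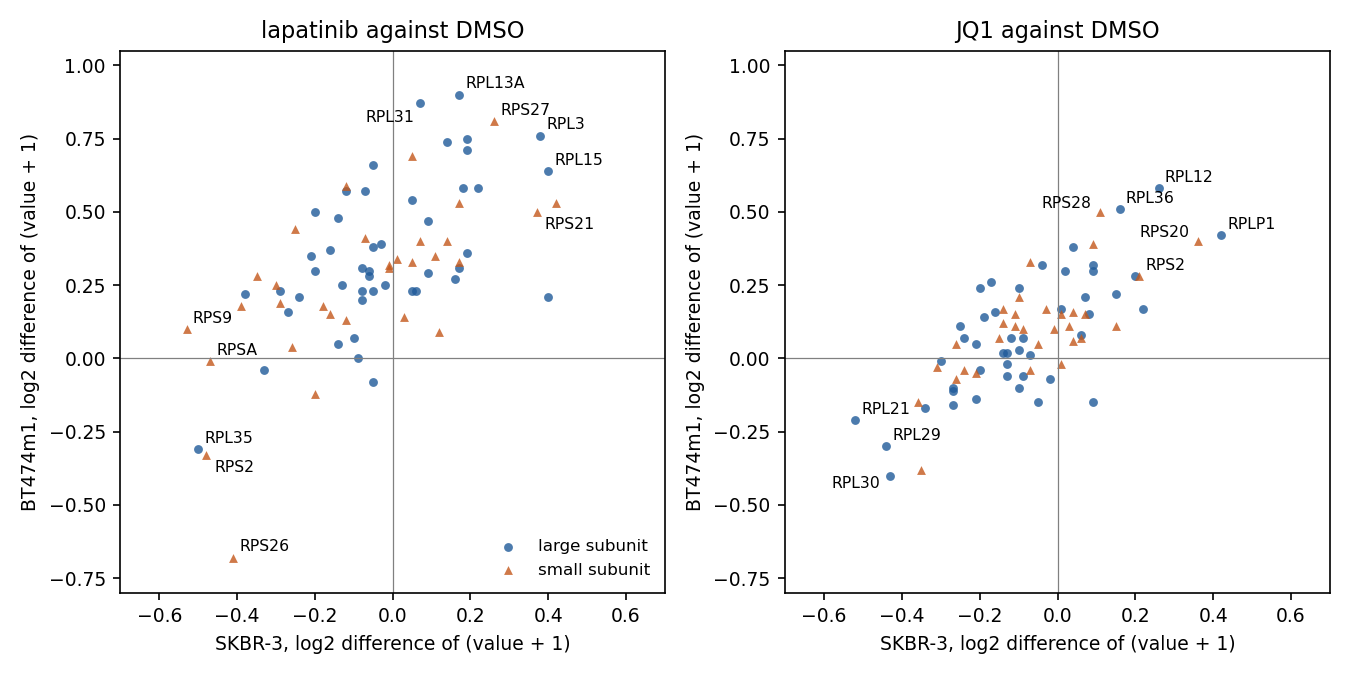
Log2 difference of value + 1 from DMSO in SKBR-3 (horizontal axis) and BT474m1 (vertical axis) for the 77 members, with lapatinib in the left panel and JQ1 in the right one, circles for the large and triangles for the small subunit. With lapatinib 70 of 77 points lie above 0 on the vertical axis and 31 on the horizontal one, and the points slope upwards in both panels (r = 0.63 and r = 0.73).

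Both drugs together gave the widest spread of the members against DMSO, with interquartile ranges of 0.37 in SKBR-3 and 0.42 in BT474m1, as it did for all genes, whose ranges were 1.30 and 1.15. The median was -0.18 in SKBR-3, where that of all genes was -0.08, and 0.13 in BT474m1, where it was 0.00. In SKBR-3, 0 members were raised and 5 lowered, against 21.5% and 31.9% of all genes. Under scaling by the median of ratios 3 were raised and 3 lowered there, and the median was -0.05. The 5 were RPSA (-0.88), RPS19 (-0.80), RPL35 (-0.73), RPL21 (-0.70) and RPS9 (-0.59), the last a protein of early small-subunit assembly. In BT474m1, 5 were raised and 0 lowered, against 24.8% and 24.6%. These were RPL31 (0.82), RPS21 (0.72), RPL26 (0.71), RPL23 (0.69) and RPL36 (0.61).

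When JQ1 was added to lapatinib, most members were lower than with lapatinib alone. The median was -0.17 in BT474m1, with 64 of 77 members below 0, where that of all genes was -0.02 and 51.6% of them were below 0. In SKBR-3 the members' median was -0.11, with 61 below 0, where that of all genes was also -0.11 and 58.7% of them were below 0. Under scaling by the median of ratios the members' SKBR-3 value turned to 0.05. In BT474m1, 0 members were raised and 2 lowered, RPL13A (-0.63) and RPS19 (-0.60), against 12.7% and 20.9% of all genes, and 1 was lowered under the median of ratios. In SKBR-3, 0 were raised and 0 lowered, against 8.52% and 27.0%.

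When lapatinib was added to JQ1, RPS2, RPS26 and RPSA were lowered in both lines, and they were the members changed at least 1.5-fold in the same direction in both lines in any drug comparison. Of all genes 8.25% were lowered in both lines in this comparison. RPS2 differed by -0.70 (-0.72 to -0.67) in SKBR-3 and -0.64 (-0.67 to -0.62) in BT474m1. RPS26 differed by -0.61 (-0.68 to -0.54) and -0.71 (-0.78 to -0.64), and RPSA by -0.73 (-0.75 to -0.70) and -0.60 (-0.65 to -0.56). With equal totals in place of the upper quartile, 1 member was lowered in both lines. In SKBR-3, 4 members were lowered, with RPL35 (-0.63) as the fourth, and 0 raised, against 23.0% and 21.0% of all genes, and 2 were lowered under either of the other scalings. In BT474m1, 3 were lowered and 0 raised, against 14.5% and 22.4%. The median of all members was -0.06 in SKBR-3 and 0.04 in BT474m1. Under scaling by the median of ratios these were 0.00 and -0.01, and under equal totals the SKBR-3 value was also 0.00.

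By role, 5 of 9 sets, some of which share genes, had medians on opposite sides of DMSO in the 2 lines with lapatinib. The 5S particle is the complex of RPL5, RPL11 and 5S RNA that also binds MDM2. RPL5 was 11223, 9747, 10072 and 9867 in SKBR-3 with DMSO, lapatinib, JQ1 and both drugs, and 5085, 7205, 5694 and 6302 in BT474m1. RPL11 was 6510, 5636, 5910 and 5405, and 4516, 5763, 4564 and 5166. Both were below DMSO in all 3 drug libraries of SKBR-3 and above it in all 3 of BT474m1, except that RPL11 with JQ1 in BT474m1, at 0.02 (-0.03 to 0.06), was within counting error and turned below DMSO under scaling to equal totals. RPS6, the substrate of S6 kinase used to read mTORC1 activity, was 15068, 15142, 14187 and 13545 in SKBR-3, and 9600, 12125, 10296 and 10819 in BT474m1. Of the 9 genes in a list of those mutated in Diamond-Blackfan anaemia, among them RPS19, RPL5, RPL11, RPS24 and RPS26, 9 were below DMSO with lapatinib in SKBR-3, as were 46 of all 77 members, and 8 were above it in BT474m1, as were 70 of all. The list does not hold all members mutated in this disease.
The 8 genes of the exit tunnel (RPL4, RPL17, RPL39, RPL23A, RPL35, RPL26, RPL19 and RPL31) had medians of 0.05 in SKBR-3 and 0.33 in BT474m1 with lapatinib, and 0 and 2 of them were raised, where 23.2% and 24.8% of all genes were. The pair near the peptidyl transferase centre (RPL3 and RPL10) had medians of 0.27 and 0.53. The entry pair RPS2 and RPS3 had medians of -0.42 and -0.02, and the 4 genes of the exit and platform (RPS14, RPS26, RPSA and RPS28) of -0.14 and 0.20. RPS27A, made as a fusion with ubiquitin, differed by -0.29 and 0.19.

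The members' median differed more between the lines than in any drug comparison. With DMSO the members' median was -0.55 in BT474m1 against SKBR-3, where that of all genes was 0.21. Of the members 63 of 77 were below 0, where 42.4% of all genes were. Of the members 4 were raised in BT474m1 and 35 lowered, against 37.4% and 24.2% of all genes. Which libraries were sequenced together is not given in the sources used here. RPL23, a protein at the subunit interface that can bind MDM2, was 2918, 2815, 3106 and 3117 in the 4 SKBR-3 libraries and 32967, 52067, 40679 and 53201 in those of BT474m1. With DMSO it was 11.3-fold higher in BT474m1. The other 3 were RPL17 (1.02), RPS3 (0.76) and RPL35 (0.61), and the value of RPL17 may hold reads of its read-through with C18orf32.

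At the other end stood RPL7, which binds ribosomal RNA in the large subunit, at 39681, 38809, 34449 and 36473 in SKBR-3 and 6442, 8440, 6250 and 6806 in BT474m1. RPL7 was 6.16-fold higher in SKBR-3 with DMSO, RPSA 4.04-fold, RPS24 3.86-fold, RPS21 3.48-fold and RPLP2 3.21-fold. For each of these genes the 4 SKBR-3 libraries lay above the 4 BT474m1 libraries. RPL32, RPL37A and RPS3A varied least, with ranges of 0.28, 0.32 and 0.33 on the log2 scale over all 8 libraries, and RPL23, RPL7 and RPSA most, with 4.24, 2.67 and 2.55.

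Members that were high or low between the lines tended to have neighbours on the chromosome that were so too. Neighbours were the 10 nearest genes kept (5 on each side, but 7 in all for RPL35A). Across the 77 members, the line difference and the median of the neighbours correlated with r = 0.78 (rho = 0.70), and with r = 0.68 over the 75 without RPL23 and RPL7. The points share neighbours where members lie close together, so no p is given. RPL23 differed by 3.50 and the median of its neighbours by 3.74, with 8 of 10 of the same sign. LASP1 was 4858 in SKBR-3 and 97839 in BT474m1, PCGF2 209 and 7895, PSMB3 936 and 17170 and PIP4K2B 707 and 16368. RPL19, beyond them, was an exception, since it differed by -0.61 while the median of its neighbours was 0.62, with 3 of 10 of its sign. The neighbours' median was -1.16 for RPL7 (8 of 10 of the same sign), -0.96 for RPSA, -1.11 for RPS24, -0.74 for RPS21 and 1.44 for RPL17. DNA copy number was not measured here, and its part in these differences was not tested.

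**Figure D5:**
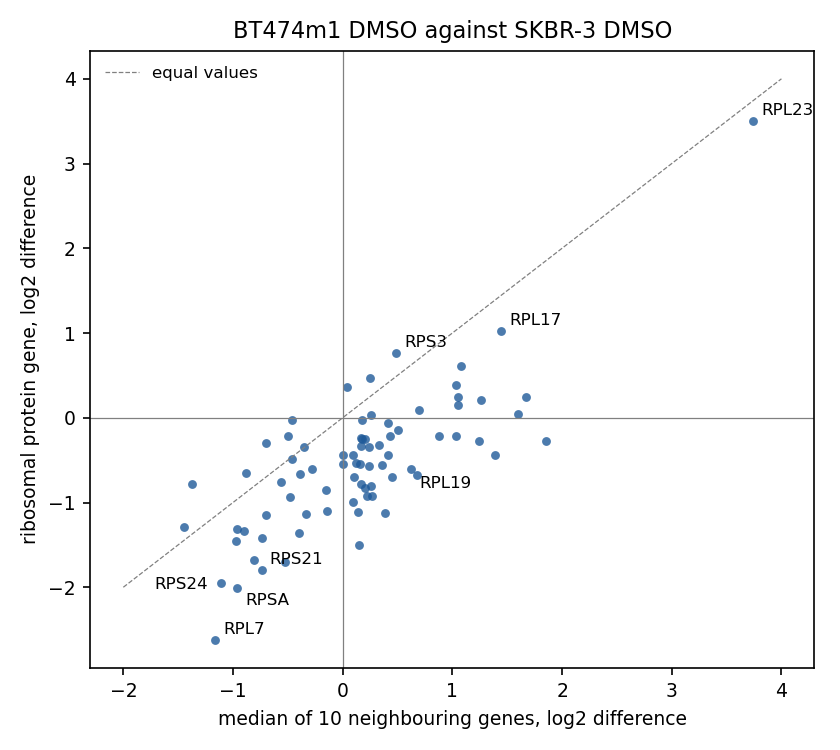
Log2 difference of value + 1 between BT474m1 and SKBR-3 with DMSO for each of the 77 members (vertical axis) against the median difference of its 10 nearest genes kept on the chromosome (7 for RPL35A, horizontal axis), with a dashed line where both are equal. The points slope upwards (r = 0.78), with RPL23 at the upper right (3.50 against 3.74) and RPL7 at the lower left (-2.62 against -1.16).

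Genes that build ribosomes had lower medians than the genes of the ribosome in all 6 comparisons of a drug with DMSO. The 21 ribosome biogenesis factors, among them FBL, NOP56, DKC1, NCL and subunits of RNA polymerase I, had medians in SKBR-3 of -0.91 under lapatinib, -0.21 under JQ1 and -0.89 under the combination, and 15, 1 and 15 of them were lowered, against 18.8%, 21.5% and 31.9% of all genes. In BT474m1 the medians were -0.31, -0.25 and -0.54, with 1, 3 and 10 lowered, against 15.6%, 21.1% and 24.6% of all genes. In each of the 6 comparisons 0 were raised. Of all genes 23.2%, 9.49% and 21.5% were raised in SKBR-3 and 24.8%, 11.9% and 24.8% in BT474m1. With JQ1 alone in either line, and with lapatinib alone in BT474m1, the lowered factors were thus a smaller share than over all genes. The 76 genes of the mitochondrial ribosome, which make a separate set of proteins coded in the nucleus, had medians of -0.38, -0.29 and -0.78 in SKBR-3. Of these genes 16 (21.1%), 17 (22.4%) and 50 (65.8%) were lowered there, so that the first 2 shares were near those of all genes and the share under the combination was above the 31.9% of all genes. In BT474m1 their medians were -0.25, -0.10 and -0.32, with 11 (14.5%), 8 (10.5%) and 23 (30.3%) lowered, against 15.6%, 21.1% and 24.6% of all genes. Of these 76 genes 1, 2 and 5 were raised there, against 24.8%, 11.9% and 24.8%. Their share of all reads was 0.595% with DMSO and 0.327% with both drugs in SKBR-3, and 0.558% and 0.453% in BT474m1. The 6 dedicated chaperones of ribosomal proteins had medians of -0.40, -0.15 and -0.63 in SKBR-3 and -0.20, -0.07 and -0.31 in BT474m1.

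Other genes whose messages begin with a TOP element had higher medians than the biogenesis factors in these 6 comparisons. The 14 translation factors and relatives of this kind (among them EEF2, EIF4B, PABPC1 and TPT1) had medians of 0.15, -0.10 and 0.26 in SKBR-3 with lapatinib, JQ1 and both drugs, and 0.38, 0.02 and 0.11 in BT474m1. With lapatinib in SKBR-3, 5 of the 14 were below DMSO, where 44.3% of all genes were. Of the 14, 2 were lowered, HNRNPA1 (-0.99) and NPM1 (-0.69), while 1 was raised, against 18.8% and 23.2% of all genes. In BT474m1, 3 were raised and 0 lowered, against 24.8% and 15.6%. The 5 snoRNA host genes kept (GAS5, SNHG1, SNHG5, SNHG6 and SNHG8) had medians of 0.42, 0.03 and 0.81 in SKBR-3 and 1.03, 0.13 and 0.44 in BT474m1. GAS5, whose spliced RNA is degraded when it is translated, was 768 with DMSO and 1405 with lapatinib in SKBR-3, and 907 and 2929 in BT474m1. SNHG1, by contrast, was 616 under DMSO and 194 under lapatinib in SKBR-3, against 429 and 580 in BT474m1.

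Among 14 genes of cap binding, mTORC1 and the control of TOP messages, the median was -0.26, 0.01 and -0.34 in SKBR-3 with lapatinib, JQ1 and both drugs, and -0.30, 0.00 and -0.24 in BT474m1. With lapatinib 12 of the 14 were below DMSO in each line, where 44.3% of all genes were in SKBR-3 and 44.7% in BT474m1. In SKBR-3, 3 were lowered and 1 raised, where the shares of all genes were 18.8% and 23.2%. In BT474m1, 4 were lowered and 1 raised, where these shares were 15.6% and 24.8%. EIF4A1, the helicase of the cap-binding complex, was 8219 with DMSO and 4422 with lapatinib in SKBR-3, and 7481 and 4656 in BT474m1. RPS6KB2, an S6 kinase gene, was 1384 and 768, and 1608 and 720. The raised gene was PDCD4, an inhibitor of this helicase, which was 681 with DMSO and 1828 with lapatinib in SKBR-3, and 5721 and 9895 in BT474m1. Under DMSO, RPS6KB1, the S6 kinase gene, stood at 703 in SKBR-3 against 5793 for BT474m1.

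Of the 8 paralogues of the members, 7 were kept and RPL10L was listed at 0. RPL39L, a paralogue of the exit tunnel protein RPL39, was 440, 205, 387 and 101 in SKBR-3 with DMSO, lapatinib, JQ1 and both drugs, and 494, 150, 368 and 192 in BT474m1. RPL22L1 was 384, 207, 360 and 244 in SKBR-3 but 235, 426, 261 and 384 in BT474m1. RPS27L, a p53 target, was 230, 242, 287 and 340 in SKBR-3 and 265, 433, 500 and 689 in BT474m1. RPL39L was thus lower with lapatinib in both lines, and RPL22L1 was lower with lapatinib in SKBR-3 and higher in BT474m1.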

How the data were processed

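Poly(A) RNA of 8 libraries, 1 per group, was sequenced. The authors deposited a value per gene with no depth, which is taken here as a signal: RSEM estimated counts scaled to an upper quartile of 1000. The submitters' processing notes name RSEM, Picard 1.88, SAMtools 1.2 and hg19, while the study's methods describe another aligner, build and, in general, a shorter treatment than the labels, and the labels and the protocol name different library kits. Whether counting used strand is not given in the sources used here.

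The value of 1 read was recovered as the common step of each library's values. Of the values above 0, 83.8% to 85.2% were whole within 0.02 reads, and 73 of 77 members were whole in all 8 libraries. A count of 3 reads equals 1.41 to 2.30 units. Genes that reached 10 in at least 1 library were kept (14429, with 6102 below). Differences are of log2(value + 1) with 95% exact Clopper-Pearson intervals from the recovered reads. The intervals and the recovery of the step were tried on simulated Poisson counts. These hold no divided or amplified reads, so they cannot show how the intervals cover those. Lists are given as medians and counts beside those of all genes kept, and no test was run.

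Python 3.11.15 with numpy 2.4.6, pandas 2.3.3 and scipy 1.17.1 was used. GENCODE 44 canonical transcripts gave length and GC content. RefSeq gave gene order and, on GRCh38.p14, starts. Members and lists were chosen with earlier results of these data known. The rule for named genes took the paralogues and 44 members. Among these were those of the role lists and those of the widest and narrowest ranges. Others were farthest from the members' median, either on the same side in both lines or between the lines. The rest changed at least 1.5-fold the same way in both lines. For members picked on both lines, agreement between the lines was set by the choice. Other members of the counts were named after their values were seen. Alternatives were another pseudocount, filter, scaling, fold and set of members. Reads of near-identical processed copies (24 rows, 3.15% to 5.43% of the members' sum) were left out except where given. Results for a few named genes are not reported here.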

Additional observations from a re-analysis of the deposited data

Results flagged for a closer look

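The medians of the ribosomal protein genes lay on opposite sides of 0 in the 2 lines in 4 comparisons. The median log2 difference under lapatinib was -0.05 for SKBR-3 but 0.31 for BT474m1. Under JQ1 the values were -0.09 and 0.08, where those of all genes were -0.08 and -0.06. In SKBR-3 given JQ1 the members thus stood near all genes. The combination gave -0.18 and 0.13, where all genes gave -0.08 and 0.00. Scaling by the median of ratios moved the members' SKBR-3 medians to -0.01 for JQ1 and -0.05 for the combination. For the combination against JQ1 the members' medians were -0.06 and 0.04. These opposite signs did not remain under scaling by the median of ratios (0.00 and -0.01) or equal totals (0.00 in SKBR-3). How far the lines differed was not tested, since each group held 1 library, and the comparisons against DMSO share their DMSO library within a line.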

How the results depend on the processing

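No paired analysis was possible because each group held 1 library and the labels give no replicate numbers for a block. The 4 pairs of libraries per drug are matched by line and by the other drug, not by replicate. Leaving out a library was not run, since no group would remain. The variation between cultures was not measured.

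Of the medians, under equal totals SKBR-3 lapatinib moved to -0.11, JQ1 to -0.24, both drugs to -0.27 and both drugs against JQ1 to 0.00. Under scaling by the median of ratios SKBR-3 JQ1 moved to -0.01, both drugs to -0.05, both against JQ1 to 0.00 and BT474m1 lapatinib to 0.26. Under that scaling 2 reversed, both drugs against lapatinib in SKBR-3 to 0.05 and both against JQ1 in BT474m1 to -0.01, and the difference between the lines moved to -0.71. These scalings shifted the median of all genes by -0.14 (SKBR-3 JQ1, equal totals), 0.11 (SKBR-3 both against lapatinib, median of ratios) and -0.16 (lines, median of ratios).

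Of the counts, equal totals gave 1 member lowered with JQ1 in SKBR-3, 2 with both against JQ1 in SKBR-3 and 1 lowered in both lines there. The median of ratios gave 3 raised and 3 lowered with both drugs in SKBR-3, 2 lowered with both against JQ1 in SKBR-3, 1 raised with JQ1 and 1 lowered with both against lapatinib in BT474m1, and 13 higher and 11 lower in the 4 JQ1 pairs. At 2-fold, 0 members were raised or lowered in any drug comparison that had a count at 1.5-fold, and 0 were lowered in both lines with both drugs against JQ1. Between the lines 2 were raised and 18 lowered at 2-fold, where 3866 and 2256 of all 14429 genes were. The pseudocount of 10 and the filters moved 0 values.

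The shares, in SKBR-3 and then BT474m1 with DMSO, lapatinib, JQ1 and both drugs, were 4.66%, 4.49%, 3.97%, 4.02%, 3.18%, 4.00%, 3.32% and 3.52% over members whole in at least 4 libraries. They were 5.19%, 5.03%, 4.72%, 4.62%, 3.50%, 4.45%, 3.71% and 3.88% without the 20 highest other genes. With pseudogene and paralogue rows they were 5.07%, 4.82%, 4.32%, 4.30%, 3.41%, 4.28%, 3.55% and 3.76%. Without RPL19 and RPL23 they were 3.96%, 3.77%, 3.40%, 3.40%, 2.55%, 3.16%, 2.66% and 2.75%.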

Other observations

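RPL3L, a paralogue of RPL3 known from heart and skeletal muscle, had the highest log2 difference of all 14429 genes with JQ1 against DMSO in SKBR-3, at 5.85. Its values were 15.0 under DMSO, 3.83 under lapatinib, 927 under JQ1 and 57.1 under the combination, from 21, 5, 1438 and 83 reads, so the JQ1 value was 61.6 times that with DMSO. In BT474m1 it was listed at 0.943, 0, 1.93 and 1.17, from 2, 0, 4 and 2 reads, which is near the floor of 3 reads. Its neighbours on the chromosome did not share the size of the difference: they ranged from -0.37 (NDUFB10) to 1.53 (SNHG9), and RPS2 stood at 0.21.

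RPLP0P2, a processed copy of the stalk gene RPLP0, was listed at 11.5, 12.3, 8.38 and 3.44 in SKBR-3 with DMSO, lapatinib, JQ1 and both drugs, and at 220, 656, 332 and 1111 in BT474m1. RPLP0 itself was 11185, 10618, 11914 and 8629 in SKBR-3 and 14628, 16752, 18272 and 13599 in BT474m1. The copy was thus highest in BT474m1 with both drugs, where RPLP0 was lowest of its line.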
